A study of Homo sapiens with 6 samples.

Results

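The RAB proteins are small GTPases that mark the membranes of the secretory and endocytic pathways, and their transcripts were followed here in MM.1S, a human multiple myeloma cell line that grows as malignant plasma cells. The members were taken by symbol, as protein-coding genes named RAB with a number and at most 1 letter and 1 further digit, which gave 63 of the 60671 genes in the deposited count table. CD38 KO libraries (3) came from a clone in which CRISPR/Cas9 had disrupted CD38, a NAD-hydrolysing surface enzyme that is an antibody target in myeloma, and WT libraries (3) from the unedited line. Cells of both groups carried GFP and click beetle red luciferase from a lentivirus and received no drug. Live cells had been sorted on surface CD38, without it for CD38 KO and with it for WT, so the sort and the genotype cannot be told apart. All CD38 KO libraries derive from 1 clone, and the replicates of each group were prepared from a sorted population, so each p-value sets this clone against this WT population over the spread of their replicates.

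A RAB protein cycles between a GDP-bound form held in the cytosol and a GTP-bound form on a membrane, where it recruits effectors such as tethers, motors and sorting adaptors. Exchange factors load GTP, GTPase-activating proteins end the active state, and a prenyl group added to the tail by geranylgeranyl transferase anchors the protein. Different RABs serve different steps: RAB1 and RAB2 act between the endoplasmic reticulum and the Golgi, RAB5 on early endosomes, RAB7 on late endosomes and lysosomes, RAB11 in recycling, and RAB3 and RAB27 on secretory granules. Plasma cells secrete immunoglobulin continuously, a route that runs through the endoplasmic reticulum and the Golgi.

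The libraries held 61515519 to 65709440 counts in CD38 KO and 63606445 to 72335496 in WT. Values are CPM, counts scaled to the library total times a TMM factor, which corrects for composition. CD38 itself stood at 0.797, 1.34 and 0.774 CPM in CD38 KO, against 42.5, 40.4 and 38.7 CPM in WT. Of 9 plasma cell markers 8 averaged at least 1 CPM, CD27 being the exception. The sum of the 9 was 9082 to 9115 CPM in CD38 KO and 7134 to 7140 CPM in WT. The markers did not move together. JCHAIN and XBP1 rose most (log2 fold changes 1.05 and 0.75, CD38 KO over WT), and TNFRSF17, PRDM1 and IRF4 rose less. MZB1 and SLAMF7 fell (-0.22 and -0.37), and SDC1 differed by 0.04. The labels call the cells B lymphoblasts, but the B cell markers MS4A1, PAX5 and CD22 were near 0 in every library, and CD79A reached 0.484 CPM in CD38 KO and 0.181 CPM in WT. Summed markers of other cells were 6.00 to 6.08 CPM in CD38 KO and 1.81 to 1.86 CPM in WT for T and NK cells, mostly CD3E. Sums were 29.5 to 32.9 CPM in CD38 KO and 23.4 to 23.9 CPM in WT for erythroid cells, mostly HBB. Monocyte markers reached 1.25 CPM in CD38 KO and 1.18 CPM in WT, and fibroblast markers 0.375 CPM in CD38 KO and 0.407 CPM in WT, with LUM at 0. The part of these markers in the results was not tested.

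In CD38 KO cells RAB32 was not detected, RAB33A and RAB20 were close to 0, RAB3B was 2.47-fold lower, and RAB15, RAB37 and RAB27B were at least 2-fold higher. Of the abundant members, RAB7A, RAB10, RAB1A, RAB6A and RAB8A differed by less than 0.1 on the log2 scale, whereas RAB5A, RAB36 and RAB14 rose and RAB5B and RAB28 fell. Of the 63 members, 55 passed the filter on low counts and were tested. At an edgeR adjusted p under 0.05, 19 were higher and 13 lower in CD38 KO, together 58.2%, where 44.4% of all 20120 tested genes were called (22.8% higher and 21.6% lower). Among tested protein-coding genes 56.4% were called, so the share of RAB genes called stood close to that of protein-coding genes in general. With library size alone as the scaling, which shifts the median of all genes to -0.08, the split was 13 higher and 15 lower. At least 2-fold changes were found for 8 members (14.5%), 3 higher and 5 lower, against 11.3% of all tested genes. The median log2 fold change of the tested members was 0.05, and that of all tested genes 0.00. In RNA from bulk cultures, a change in the share of cells that express a gene and a change of its RNA per cell cannot be told apart.

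**Figure D1:**
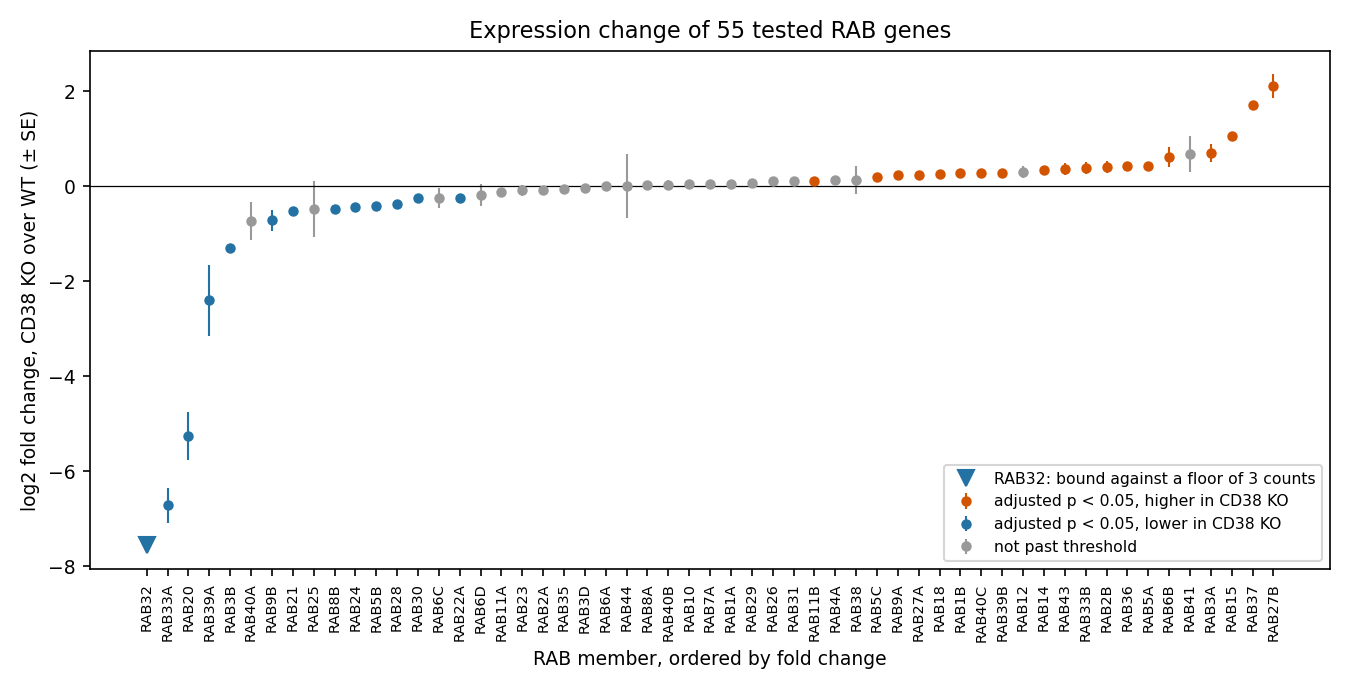
Log2 fold change (CD38 KO over WT, vertical axis) of the 55 tested RAB genes in order of size (horizontal axis), with standard errors from edgeR as bars; colours mark genes past an adjusted p of 0.05, and the triangle is the bound for RAB32, whose CD38 KO counts were all 0. Most members lie near 0, while 5 at the left and 3 at the right changed at least 2-fold.

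The 4 members RAB32, RAB33A, RAB20 and RAB39A reached the filter's level (0.156 CPM) only in WT libraries, so they were tested only because they were high in WT and had to differ. Among the other 51 tested members, 28 were called (54.9%), 19 higher and 9 lower, and 4 changed at least 2-fold (7.84%). For all genes that reached the level in both groups these shares were 43.5% and 9.59%. The 8 members not tested (RAB3C, RAB4B, RAB7B, RAB13, RAB17, RAB19, RAB34 and RAB42) had at most 0.202 CPM in any library. A count of 0 in a library allows up to 3 counts, on average 0.0486 CPM in CD38 KO; floors and intervals cover counting error only.

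The sequences at the RefSeq starts of 3 of the changed genes are shown with their CpG content, the feature on which promoters are commonly classed. They are the members with at least 2-fold changes and an average of at least 1 CPM that the RefSeq table (build GRCh38.p14) held, each as the 250 bases before the annotated start on the gene's own strand, 5' to 3'. GENCODE 29 places the starts of RAB32 and RAB3B farther upstream, so part of these windows lies inside the gene by that annotation. Capitals mark CG dinucleotides. RAB27B (chr18:54717607-54717856, plus strand) rose, and RAB32 (chr6:146543583-146543832, plus strand) and RAB3B (chr1:51990701-51990950, minus strand) fell.
RAB27B: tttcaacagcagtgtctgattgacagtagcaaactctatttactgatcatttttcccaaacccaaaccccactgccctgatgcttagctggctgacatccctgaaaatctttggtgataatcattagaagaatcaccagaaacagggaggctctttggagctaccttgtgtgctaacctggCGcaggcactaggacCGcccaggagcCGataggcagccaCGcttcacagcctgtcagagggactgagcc
RAB32: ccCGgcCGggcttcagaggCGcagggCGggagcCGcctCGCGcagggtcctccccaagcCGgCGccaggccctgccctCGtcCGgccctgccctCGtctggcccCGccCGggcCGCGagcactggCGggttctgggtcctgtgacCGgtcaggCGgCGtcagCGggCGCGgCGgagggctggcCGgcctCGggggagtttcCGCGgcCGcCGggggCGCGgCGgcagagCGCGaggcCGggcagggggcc
RAB3B: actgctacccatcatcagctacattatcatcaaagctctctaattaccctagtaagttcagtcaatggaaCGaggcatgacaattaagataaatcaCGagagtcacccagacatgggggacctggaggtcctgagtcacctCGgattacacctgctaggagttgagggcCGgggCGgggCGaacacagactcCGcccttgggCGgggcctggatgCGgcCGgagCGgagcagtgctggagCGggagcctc

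These windows held 4 CG dinucleotides for RAB27B, 36 for RAB32 and 12 for RAB3B. Of 35116 windows of the same length in the table, 93.9% held at least 1 CG and 4.85% held as many as RAB32 or more, with a median of 11. For the 50 RAB genes with a window, the median was 20.5. It was 23.5 for the 14 called higher, 22.0 for the 11 called lower, 19.0 for the 17 tested and not called, and 10.0 for the 8 not tested. The members too low to be tested thus had the lowest median, whereas RAB32, at 0 in CD38 KO alone, was among the highest counts of all promoters. These counts describe letters, not methylation or factor binding.

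RAB32 serves lysosome-related organelles such as melanosomes and also associates with mitochondria. It had 0 counts in each of the 3 CD38 KO libraries, against 691, 592 and 613 counts in WT, or 9.33, 8.93 and 9.33 CPM. Against a floor of 3 counts per library it was at least 189-fold lower in CD38 KO (edgeR adjusted p = 5.54e-15). RAB38, its closest relative with the same organelles, had 1.11, 0.991 and 1.26 CPM in CD38 KO, against 0.716, 1.48 and 0.882 CPM in WT, and the groups overlapped (log2 fold change 0.13 ± 0.287, SE; adjusted p = 0.752). HPS1 and HPS4, which together form the exchange factor of RAB32 and RAB38, averaged 361 ± 7.73 and 83.2 ± 2.98 CPM in CD38 KO, against 368 ± 11.3 and 86.6 ± 2.49 CPM in WT (SD, n = 3 each). Neither passed the threshold (adjusted p = 0.571 and 0.343), although with library size alone both did, at log2 fold changes of -0.11 and -0.14. ANKRD27 (VARP), an effector of RAB32 and RAB38, rose by a log2 fold change of 0.21 (adjusted p = 0.00142). RAB32 lies on chromosome 6 (146543693 to 146554965, GENCODE 29, GRCh38). Its nearest tested protein-coding neighbours of at least 1 CPM, SHPRH and FBXO30 before it and STXBP5 and TAB2 after it, were not past the threshold (log2 changes -0.13, 0.17, -0.16 and -0.06).

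RAB33A and RAB33B are Golgi RABs that bind the autophagy protein ATG16L1. RAB33A, on chromosome X, had 3, 0 and 7 counts in CD38 KO (0.0469, 0 and 0.113 CPM), against 437, 453 and 323 counts in WT (5.90, 6.83 and 4.91 CPM). The summed counts per effective library size were 109-fold higher in WT, with a 95% counting interval of 59.2 to 228. Its log2 fold change was -6.72 ± 0.361 (SE; edgeR adjusted p = 1.76e-11), and -7.81 without CD38 KO replicate 3, which held most of its counts. RAB33B moved the other way: 8.38, 7.19 and 9.66 CPM in CD38 KO lay above 6.16, 6.71 and 6.48 CPM in WT (log2 fold change 0.38 ± 0.121, SE; adjusted p = 0.0135). That call was lost without CD38 KO replicate 3 (adjusted p = 0.105), without WT replicate 1 (0.0581) and with library size alone (0.0529). To compare paralogues, CPM was divided by the gene's exon length in kb from GENCODE 29. On that scale RAB33A made up 2.19%, 0% and 4.46% of the RAB33 pair in CD38 KO, against 79.3%, 80.3% and 75.2% in WT. The pair together had 1.72 ± 0.291 CPM per kb in CD38 KO, against 5.96 ± 0.786 CPM per kb in WT (SD, n = 3). Of its neighbours, ELF4 fell by 0.31 and AIFM1 rose by 0.61 on the log2 scale, and ZNF280C and SLC25A14 were not past the threshold (log2 changes -0.06 and -0.18).

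RAB20, which acts on endosomes and phagosomes, and RAB39A, linked to phagosomes and autophagy, were low in WT already and are outside the rule for genes given in full because they averaged under 1 CPM; they were singled out after their values were seen. RAB20 had 3, 0 and 3 counts in CD38 KO, against 82, 113 and 74 in WT (log2 fold change -5.26 ± 0.508, SE; edgeR adjusted p = 2.53e-08). It lies on chromosome 13, whose tested genes had a median log2 fold change of 0.39. Its neighbours ABHD13, NAXD and CARS2 rose and IRS2 fell, with log2 fold changes of 0.36, 0.51, 0.35 and -0.31. RAB39A had 0, 2 and 7 counts in CD38 KO, against 24, 12 and 19 in WT (log2 fold change -2.40, adjusted p = 0.0118). Its value was -3.87 without CD38 KO replicate 3, and its call was lost without CD38 KO replicate 1 (adjusted p = 0.05002) and without WT replicate 1 (0.0600). RAB39B, a brain-enriched relative, made up 99.7% of the RAB39 pair per kb in CD38 KO and 97.8% in WT, and rose: 25.8, 25.3 and 29.7 CPM in CD38 KO lay above 22.2, 21.9 and 22.1 CPM in WT (adjusted p = 0.00333).

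**Figure D2:**
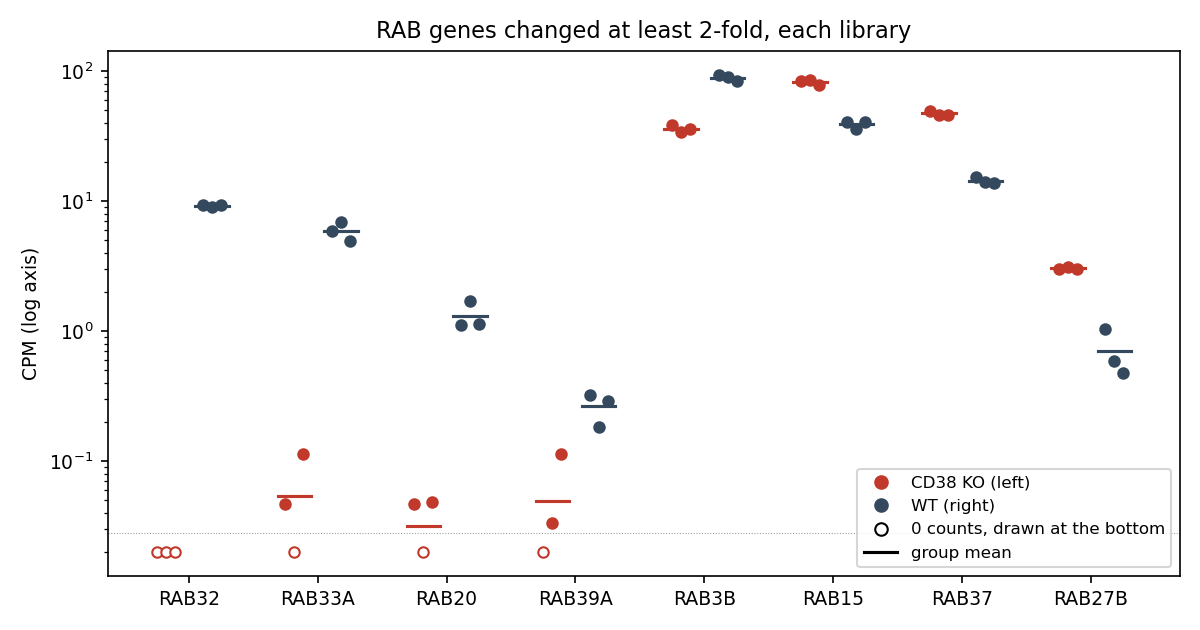
CPM of each library (logarithmic vertical axis) for the 8 RAB genes changed at least 2-fold, with CD38 KO to the left of WT for each gene; lines are group means, and open circles stand for 0 counts. RAB32 had 0 counts in all 3 CD38 KO libraries. The genes were chosen by their difference between the groups in these same libraries, so the lack of overlap for all 8 adds no support.

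Among RABs of regulated secretion, which dock and release granules, 4 of 7 tested rose and 1 fell (median log2 change 0.24). The shares were 22.8% and 21.6% for all tested genes, and 28.4% and 28.0% for protein-coding ones. At least 2-fold changes were found for 3 of the 7 secretion RABs, against 11.3% of all tested genes. RAB37, known from secretory granules of mouse mast cells, stood at 49.3, 46.2 and 45.8 CPM in CD38 KO, against 15.2, 13.9 and 13.8 CPM in WT. All CD38 KO libraries lay above all WT libraries, a 3.30-fold rise (log2 fold change 1.72 ± 0.0689, SE; edgeR adjusted p = 2.06e-14). The neighbours of RAB37 on chromosome 17 rose too: CD300A on one side and SLC9A3R1 and NAT9 on the other had log2 fold changes of 0.67, 0.67 and 0.58, while TTYH2 was not past the threshold at 0.15. RAB27B, which docks secretory granules, had 3.00, 3.11 and 3.02 CPM in CD38 KO, against 1.04, 0.588 and 0.472 CPM in WT (log2 fold change 2.11 ± 0.253, SE; adjusted p = 6.33e-07). WT replicate 1 was the highest of the WT libraries and still under every CD38 KO library. Of its neighbours, POLI and C18orf54 rose by 0.35 and 0.47, TCF4 fell by 1.47 and TXNL1 was not past the threshold at 0.06, all on the log2 scale.

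RAB27A, the paralogue that serves cytotoxic granules and exosomes, made up 97.8 ± 0.215% of the RAB27 pair per kb in CD38 KO and 99.4 ± 0.282% in WT (SD, n = 3). It had 107, 92.8 and 105 CPM in CD38 KO, against 83.3, 83.9 and 90.8 CPM in WT, a rise of 0.24 ± 0.055 on the log2 scale (SE; edgeR adjusted p = 0.00116). The groups were close but did not overlap. Effectors of RAB27 moved in different directions. SYTL3 stood at 6.13, 6.63 and 7.65 CPM in CD38 KO, against 1.28, 0.633 and 0.867 CPM in WT (log2 fold change 2.86, adjusted p = 4.66e-10). SYTL2 fell to 3.41, 3.41 and 2.40 CPM in CD38 KO, against 7.84, 8.23 and 8.40 CPM in WT (log2 fold change -1.41, adjusted p = 5.26e-08), and SYTL1, a synaptotagmin-like protein too, was not past the threshold (0.05, adjusted p = 0.415). MYO5A, the myosin that RAB27A recruits to melanosomes through melanophilin, fell to 133, 125 and 125 CPM in CD38 KO, against 298, 265 and 295 CPM in WT (log2 fold change -1.16 ± 0.0477, SE; adjusted p = 5.78e-14).

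In the RAB3 family, whose members regulate vesicle exocytosis, the B member fell and the A member rose. RAB3B had 38.2, 33.8 and 35.6 CPM in CD38 KO, against 93.7, 89.1 and 83.5 CPM in WT (log2 fold change -1.31 ± 0.0583, SE; edgeR adjusted p = 1.22e-13). RAB3A had 3.53, 3.98 and 3.95 CPM in CD38 KO, against 2.50, 2.85 and 1.69 CPM in WT (log2 fold change 0.70 ± 0.187, SE; adjusted p = 0.00408). For RAB3D the groups overlapped, at 21.1, 19.9 and 20.6 CPM in CD38 KO and 23.2, 19.1 and 21.3 CPM in WT (adjusted p = 0.700), and RAB3C was not tested. Per kb, RAB3B made up 29.2 ± 1.27% of the family in CD38 KO and 53.2 ± 0.863% in WT (SD, n = 3), and RAB3D 48.7 ± 0.502% in CD38 KO and 36.9 ± 2.95% in WT. The leading member of the family per kb was thus RAB3D in CD38 KO and RAB3B in WT. In CPM, without division by exon length, RAB3B led in both groups. The exon length counts all annotated exons of a gene, and which transcripts were expressed was not examined. RAB3IL1 (GRAB), an exchange factor for RAB3A and RAB8, stood at 13.3, 14.7 and 14.4 CPM in CD38 KO, against 1.70, 1.28 and 1.52 CPM in WT, a 9.36-fold rise (log2 fold change 3.23 ± 0.131, SE; adjusted p = 2.41e-14). MADD, a more abundant RAB exchange factor, averaged 83.0 ± 1.62 CPM in CD38 KO and 81.9 ± 4.77 CPM in WT (SD, n = 3). MADD was not past the threshold (log2 fold change 0.02, edgeR adjusted p = 0.792). The RAB3 effector RIMS1 was higher at a low level, at 0.907, 0.789 and 0.581 CPM in CD38 KO against 0.108, 0.0302 and 0.152 CPM in WT (log2 fold change 2.94, adjusted p = 3.52e-05). It reached the filter's level only in CD38 KO and so had to differ. RIMS2 was lower (-0.57, adjusted p = 0.00573). RAB26, another granule RAB, was not past the threshold (log2 fold change 0.11 ± 0.0645, SE; adjusted p = 0.191).

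**Figure D3:**
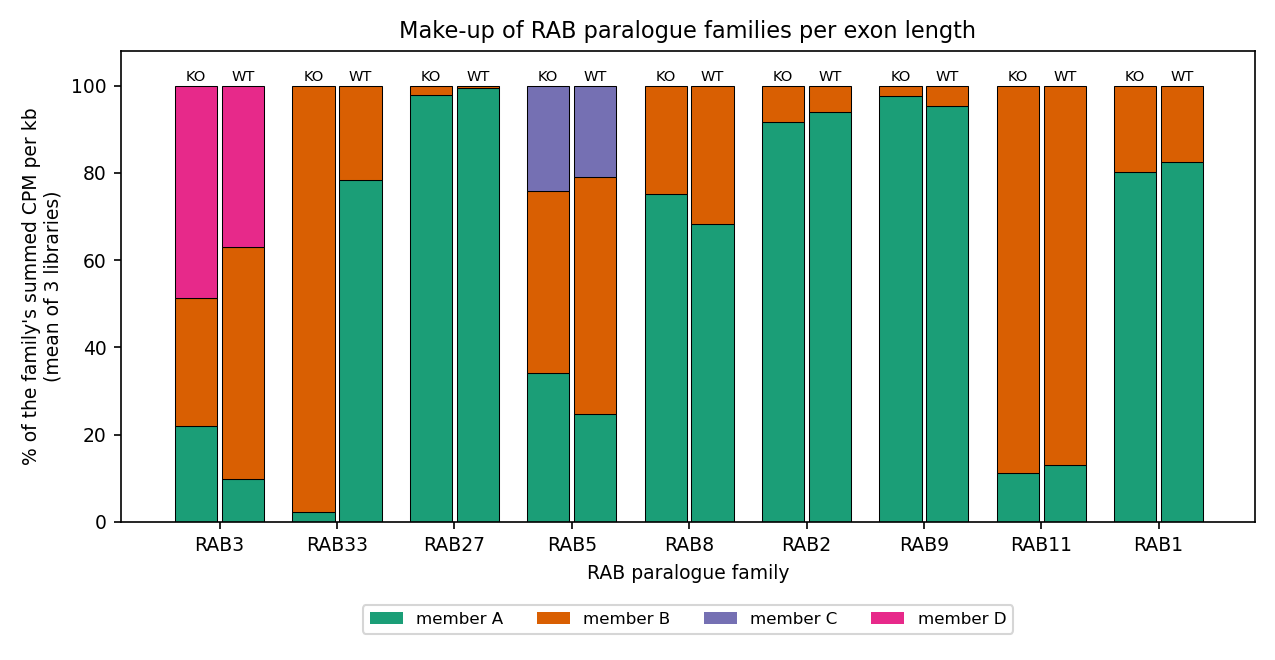
Share of each paralogue in its RAB family (vertical axis, % of the family's summed CPM per kb of exon, mean of 3 libraries), with CD38 KO as the left and WT as the right bar of each family. The RAB33 pair was 2.22% RAB33A in CD38 KO and 78.3% in WT, and RAB3B made up 29.2% of the RAB3 family in CD38 KO and 53.2% in WT.

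Of the RABs of early endosomes and recycling, 5 of 14 tested rose and 4 fell, with RAB20 among the falls (median log2 change 0.02). The background was 22.8% and 21.6% of all tested genes, and 28.4% and 28.0% of protein-coding ones. RAB15, which acts on early and recycling endosomes, stood at 82.9, 85.1 and 77.9 CPM in CD38 KO, against 40.7, 35.9 and 40.6 CPM in WT. That was a 2.10-fold rise with no overlap between the groups (log2 fold change 1.07 ± 0.0583, SE; edgeR adjusted p = 3.08e-12). Of its neighbours on chromosome 14, MAX rose by 0.21 and SPTB fell by 0.42 on the log2 scale, and CHURC1 and FNTB were not past the threshold (log2 changes 0.02 and -0.07). The 3 RAB5 paralogues, which drive early endosome fusion, moved in opposite directions. RAB5A had 74.3, 70.5 and 76.1 CPM in CD38 KO, against 52.3, 57.7 and 53.4 CPM in WT (log2 fold change 0.44 ± 0.0535, SE; adjusted p = 8.2e-07). RAB5B fell to 161, 159 and 151 CPM in CD38 KO, against 207, 208 and 208 CPM in WT (-0.41 ± 0.0403, SE; adjusted p = 3.75e-08). RAB5C was higher by 0.19 (adjusted p = 0.029) with overlapping groups, and its call was lost without CD38 KO replicate 1 (adjusted p = 0.0865), CD38 KO replicate 3 (0.0865), WT replicate 2 (0.131) or WT replicate 3 (0.115) and with library size alone (0.215). Summed per kb, the RAB5 family had 57.1 ± 1.57 CPM per kb in CD38 KO and 58.1 ± 0.464 CPM per kb in WT (SD, n = 3). Within it RAB5A made up 34.1% in CD38 KO and 24.8% in WT, and RAB5B 41.7% in CD38 KO and 54.3% in WT.

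RAB21, which carries integrins into endosomes, fell to 74.0, 61.0 and 69.8 CPM in CD38 KO, against 96.6, 96.4 and 101 CPM in WT (log2 fold change -0.52 ± 0.0591, SE; edgeR adjusted p = 5.2e-07). RAB22A, another early endosome RAB, had 80.0, 71.8 and 77.3 CPM in CD38 KO, against 89.1, 86.7 and 95.1 CPM in WT (-0.24, adjusted p = 0.00064). Both were lower in every CD38 KO library than in any WT library. RAB21 and RAB5B lie on chromosome 12, whose tested genes had a median log2 fold change of -0.11. RAB35, on the same chromosome, was not past the threshold (-0.06). The part of the chromosome in these values was not tested. RAB14, which works between endosomes and the Golgi, rose to 99.5, 93.3 and 99.1 CPM in CD38 KO, against 76.7, 75.5 and 76.5 CPM in WT (0.35, adjusted p = 1.88e-06). Of the RAB11 pair of recycling endosomes, RAB11B was higher by 0.12 (adjusted p = 0.0186), a call lost without WT replicate 2 (adjusted p = 0.0777), with no filter on low counts (0.105) and with library size alone (0.464). RAB11A was lower by 0.12 on the log2 scale and not past the threshold (adjusted p = 0.0679); without WT replicate 1 it was called (-0.15, adjusted p = 0.0424), as it was with library size alone (-0.20). RAB4A, RAB31, RAB35 and RAB25 were not past the threshold (log2 changes 0.13, 0.11, -0.06 and -0.48).

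Of the RABs of the endoplasmic reticulum and Golgi, 8 of 17 tested rose and 3 fell (median log2 change 0.26), against 22.8% and 21.6% of all tested genes and 28.4% and 28.0% of protein-coding ones. The falls were RAB30 and, having passed the filter only through WT, RAB33A and RAB39A. RAB39A was counted here although it is also linked to phagosomes and autophagy. Of the rises, the calls of RAB1B, RAB2B, RAB6B, RAB33B and RAB43 were each lost under at least 1 alternative processing. With library size alone, those of RAB1B, RAB33B and RAB43 were lost and RAB2A was called lower. RAB36, a Golgi RAB that takes part in positioning late endosomes and lysosomes, had 141, 133 and 139 CPM in CD38 KO, against 113, 96.8 and 99.3 CPM in WT (log2 fold change 0.42 ± 0.0526, SE; edgeR adjusted p = 1.5e-06). It ranked 5th of the 63 members per kb in CD38 KO and 9th in WT. RAB18, which acts on the endoplasmic reticulum and lipid droplets, had 89.5, 79.2 and 84.7 CPM in CD38 KO, against 68.6, 71.9 and 71.2 CPM in WT (0.26, adjusted p = 0.000272). The subunits of its exchange factor moved apart, RAB3GAP1 rising by 0.24 and RAB3GAP2 falling by 0.39 on the log2 scale (adjusted p = 0.000257 and 1.39e-06).

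The Golgi RAB RAB30 fell to 63.5, 59.5 and 61.4 CPM in CD38 KO, against 72.5, 75.8 and 72.2 CPM in WT (log2 fold change -0.26, edgeR adjusted p = 0.000205). The main carriers of the route from the endoplasmic reticulum through the Golgi were near their WT level: RAB1A, RAB2A and RAB6A had log2 fold changes of 0.05 ± 0.0439, -0.07 ± 0.0456 and 0.002 ± 0.0425 (SE), none past the threshold. RAB2A was called without WT replicate 1 (-0.12, adjusted p = 0.0446) and with library size alone (-0.16). Each of these has a less abundant B paralogue, and all 3 of those rose. RAB1B had 25.4, 24.3 and 20.0 CPM in CD38 KO, against 19.6, 18.7 and 19.4 CPM in WT (0.27, adjusted p = 0.0138). RAB2B had 8.19, 9.56 and 8.58 CPM in CD38 KO, against 5.55, 6.68 and 7.56 CPM in WT (0.41, adjusted p = 0.00944). RAB6B, a neuron-enriched form, had 2.41, 2.08 and 2.18 CPM in CD38 KO, against 1.20, 1.42 and 1.76 CPM in WT (0.61, adjusted p = 0.0235). These B members also lay above WT in every CD38 KO library, but each call hung on single libraries. It was lost for RAB1B without CD38 KO replicate 1 (adjusted p = 0.0693) and with library size alone (0.0833), and for RAB2B without WT replicate 1 (0.0766). For RAB6B it was lost without CD38 KO replicate 1 (0.0534), WT replicate 1 (0.121) or WT replicate 2 (0.0688). RAB43, a Golgi RAB, was higher by 0.37 (6.69, 6.95 and 7.16 CPM in CD38 KO, against 4.85, 5.64 and 5.64 CPM in WT; adjusted p = 0.0172), and was not called without CD38 KO replicate 3 (0.0573), without WT replicate 1 (0.0978) or with library size alone (0.0640). RAB6C, RAB6D and RAB41 were not past the threshold (log2 changes -0.26, -0.19 and 0.68).

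Of the late endosome, lysosome and autophagy RABs, 1 of 8 tested rose and 3 fell, RAB32 among them (median log2 change 0.06). The background was 22.8% and 21.6% of all tested genes, and 28.4% and 28.0% of protein-coding ones. RAB7A, the RAB of lysosome fusion, was the most abundant member per kb in both groups, at 123 CPM per kb in CD38 KO and 119 CPM per kb in WT. Its 342, 334 and 328 CPM in CD38 KO lay just above 324, 326 and 321 CPM in WT, a difference of 0.05 ± 0.0369 on the log2 scale (SE; edgeR adjusted p = 0.328). RAB24, an autophagy RAB, fell to 22.5, 24.1 and 25.0 CPM in CD38 KO, against 32.5, 32.6 and 32.3 CPM in WT (-0.45 ± 0.0666, SE; adjusted p = 1.1e-05). The RAB9 pair returns cargo from late endosomes to the Golgi, and its members moved apart. RAB9B had 1.05, 1.60 and 1.27 CPM in CD38 KO, against 1.90, 2.20 and 2.31 CPM in WT (-0.71, adjusted p = 0.0115; 0.0533 without WT replicate 3). RAB9A, 97.5% of the pair per kb in CD38 KO and 95.4% in WT, had 30.4, 30.0 and 27.4 CPM in CD38 KO, against 24.1, 25.3 and 25.5 CPM in WT (0.23, adjusted p = 0.00901; 0.0889 with library size alone). RAB12 and RAB29 were not past the threshold, at 0.31 and 0.07; RAB12 was called without CD38 KO replicate 2 (0.38, adjusted p = 0.0284), at a filter of 1 CPM in 3 libraries (adjusted p = 0.0467) and among protein-coding genes only (0.0468).

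Of 3 tested exocytic RABs, which deliver Golgi and recycling vesicles to the surface, 1 fell and none rose. That was 33.3% called, against 44.4% of all tested and 56.4% of protein-coding genes. RAB8B had 31.9, 27.8 and 31.9 CPM in CD38 KO, against 42.8, 42.6 and 41.4 CPM in WT (log2 fold change -0.47 ± 0.0651, SE; edgeR adjusted p = 4.04e-06). RAB8A, the larger part of the pair per kb (75.2% in CD38 KO and 68.4% in WT), and RAB10 had log2 fold changes of 0.02 ± 0.049 and 0.04 ± 0.0389 (SE; adjusted p = 0.776 and 0.384). Of 6 other members tested, 1 rose and 1 fell, again 33.3% called. RAB28, a RAB of cilia and photoreceptors, fell to 70.0, 64.7 and 66.2 CPM in CD38 KO, against 82.2, 90.6 and 87.7 CPM in WT (-0.37, adjusted p = 3.54e-06). RAB40C, whose SOCS box joins a ubiquitin ligase, rose to 36.9, 36.3 and 34.2 CPM in CD38 KO, against 31.7, 25.8 and 30.9 CPM in WT (0.28, adjusted p = 0.00398). RAB23, RAB40A, RAB40B and RAB44 were not past the threshold, and at 0.163 CPM in both groups RAB44 was too low for a direction.

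**Figure D4:**
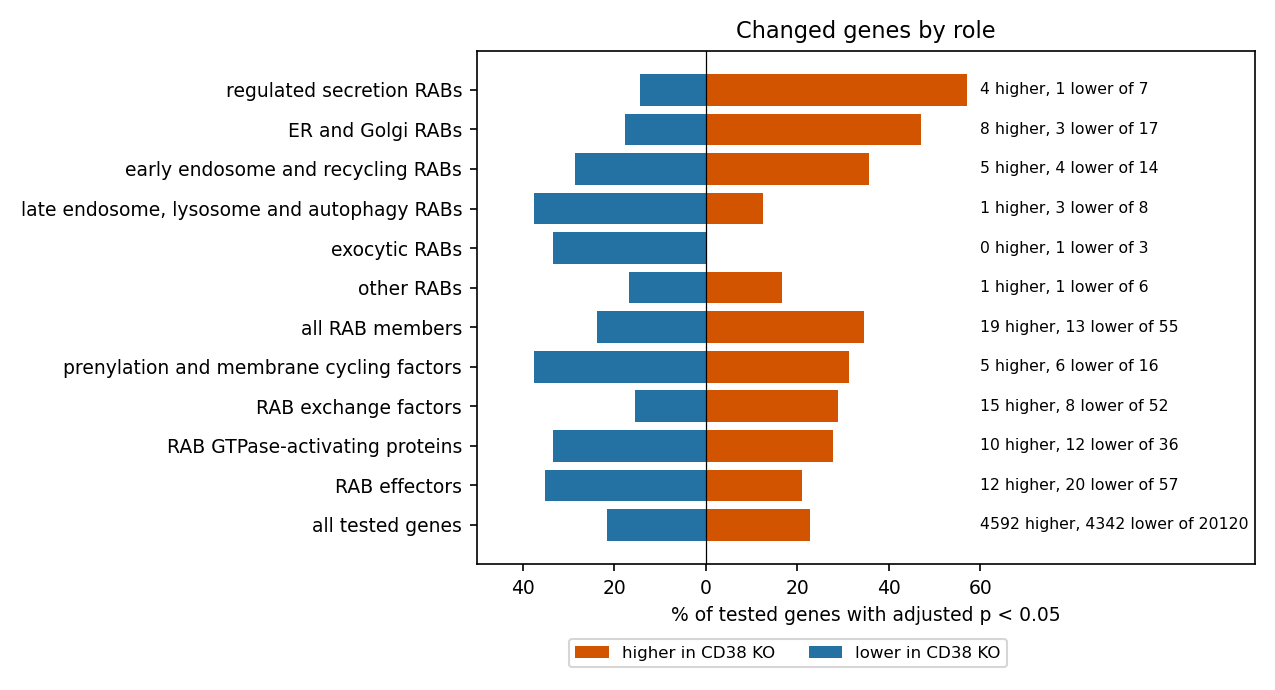
Share of tested genes with an adjusted p under 0.05 (horizontal axis, %), higher in CD38 KO to the right and lower to the left, for each role group of RAB genes, each group of their regulators and effectors, and all tested genes. With TMM scaling, RABs of regulated secretion (4 higher and 1 lower of 7) and of the endoplasmic reticulum and Golgi (8 higher and 3 lower of 17) had more rises than falls. The effectors had more falls (20) than rises (12).

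The summed level of the family overlapped between the groups on the TMM scale, at 2947 to 3010 CPM in CD38 KO and 2923 to 2970 CPM in WT. As a share of all counts, without TMM, it was lower in every CD38 KO library, at 0.285% to 0.293% in CD38 KO and 0.299% to 0.307% in WT. Per kb, the 5 members highest in CD38 KO were RAB7A, RAB11B, RAB10, RAB1A and RAB36. Together they supplied 46.8% to 47.6% of the family's level in CD38 KO and 45.0% to 45.5% in WT. The set was chosen on CD38 KO values, and in WT RAB28 ranked 5th and RAB36 9th. These shares therefore do not show that the family's level was more concentrated in CD38 KO. At the other end, 13 members stayed under 1 CPM in every library. For 38 of 55 tested members (69.1%) every CD38 KO library lay on one side of every WT library, where this held for 52.5% of all tested genes. The 38 include RAB32, RAB33A, RAB20 and RAB39A, which passed the filter only through WT. The share was not computed for protein-coding genes alone, so no excess over comparable genes is shown. Some values may be affected, in either direction, by genes whose exons overlap. How reads in shared exons were counted is not given, nor is the strand setting, on which overlaps on the opposite strand depend. By exon bases in GENCODE 29, RAB43 shares 79.3% with the readthrough gene ISY1-RAB43 and RAB24 44.8% with MXD3 on the same strand, and RAB23 57.7% with BAG2 and RAB8A 37.8% with an antisense RNA on the opposite strand. RAB6C and RAB6D are near-copies of RAB6A, so their reads may be shared.

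Of 16 prenylation and membrane cycling factors tested, 5 rose and 6 fell (68.8% called, against 44.4% of all tested and 56.4% of protein-coding genes), none at least 2-fold (median log2 change 0.005). YIPF1, a Golgi protein of the family that binds RABs, fell to 30.0, 30.8 and 30.6 CPM in CD38 KO, against 51.4, 52.4 and 52.5 CPM in WT (-0.77, edgeR adjusted p = 2.59e-10). RABIF (MSS4), a RAB-binding chaperone, averaged 24.1 ± 0.369 CPM in CD38 KO and 36.4 ± 1.49 CPM in WT (SD, n = 3), and RABAC1 (PRA1), which helps RABs onto membranes, 8.89 ± 1.10 CPM in CD38 KO and 13.8 ± 1.42 CPM in WT. Of the transferase that prenylates RABs, the alpha subunit RABGGTA rose by 0.42 (adjusted p = 5.17e-06) and the beta subunit RABGGTB was not past the threshold (0.09, adjusted p = 0.343). GDI2, which extracts RABs from membranes and keeps them soluble, averaged 210 ± 2.73 CPM in CD38 KO and 193 ± 5.71 CPM in WT (SD, n = 3). Its rise (adjusted p = 0.0176) was lost without CD38 KO replicate 3 (0.0602), without WT replicate 1 (0.0960), with no filter on low counts (0.0968) and with library size alone (0.477).

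Of 52 exchange factors tested, 15 rose and 8 fell (44.2% called, against 56.4% of protein-coding genes; median log2 change 0.05). Besides RAB3IL1, the RAB12 exchange factor DENND3 rose, to 231, 210 and 210 CPM in CD38 KO, against 87.9, 82.0 and 86.3 CPM in WT (log2 fold change 1.35, edgeR adjusted p = 2.42e-15). DENND2D rose by 0.98 (adjusted p = 1.2e-10). Of the RIN family of RAB5 exchange factors, RIN2 fell, RIN3 rose and the more abundant RINL was not past the threshold (34.5 ± 1.65 CPM in CD38 KO and 33.8 ± 1.38 CPM in WT, SD, n = 3; 0.03, adjusted p = 0.737). RIN2 had 0.0156, 0.118 and 0.0323 CPM in CD38 KO, against 1.97, 2.25 and 1.14 CPM in WT (-5.00, adjusted p = 2.98e-08; -6.12 without CD38 KO replicate 2). It reached the filter's level only in WT, so it was tested only because it was high there and had to differ. RIN3 had 2.38, 2.44 and 2.15 CPM in CD38 KO, against 1.23, 0.799 and 0.806 CPM in WT (1.29, adjusted p = 9.4e-05). RAB3IP (Rabin8), the RAB8 exchange factor, fell by 0.42 on the log2 scale (adjusted p = 6.58e-06), and TRAPPC12, a TRAPP complex subunit, fell by 0.65 (adjusted p = 9.64e-08).

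Of 36 GTPase-activating proteins tested, 10 rose and 12 fell (61.1% called, against 56.4% of protein-coding genes; median log2 change -0.04). TBC1D9 fell to 29.1, 26.1 and 26.0 CPM in CD38 KO, against 62.8, 52.8 and 54.9 CPM in WT (-1.07, edgeR adjusted p = 8.73e-11). TBC1D15, which acts on RAB7, fell to 12.0, 10.3 and 12.3 CPM in CD38 KO, against 27.2, 24.0 and 26.2 CPM in WT (-1.16, adjusted p = 4.64e-10). TBC1D30, which acts on RAB8, fell by 0.89 on the log2 scale (adjusted p = 4e-08). USP6NL (RN-tre), which acts on RAB5, EVI5L and TBC1D31 rose by 0.91, 0.78 and 0.68 (adjusted p = 1.95e-08, 5.87e-10 and 4.38e-07).

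Of 57 effectors tested, 12 rose and 20 fell (56.1% called, close to the 56.4% of protein-coding genes; median log2 change -0.09). KIF20A, a mitotic kinesin that binds RAB6, rose to 67.1, 71.7 and 72.4 CPM in CD38 KO, against 21.0, 20.6 and 22.4 CPM in WT (1.72, edgeR adjusted p = 1.59e-15). Of the RAB5 effectors, RBSN (rabenosyn) rose by 0.24 on the log2 scale (adjusted p = 0.00139), RABEP1 and RABEP2 were not past the threshold (0.05 and -0.09; RABEP2 was called with library size alone, adjusted p = 0.0372), and APPL2 and EEA1 fell, APPL2 to 46.1, 47.8 and 47.6 CPM in CD38 KO, against 123, 121 and 117 CPM in WT (-1.35, adjusted p = 1.95e-15), and EEA1 by 0.37 on the log2 scale (adjusted p = 0.00173). APPL2 and EEA1 lie on chromosome 12, as do TBC1D15, TBC1D30 and RAB3IP, which fell. DENND5B, also on chromosome 12, rose by 0.40 on the log2 scale (edgeR adjusted p = 1.46e-05). The part of the chromosome was not tested. The relative APPL1 was not past the threshold (0.18, adjusted p = 0.0801), but was called without CD38 KO replicate 2 (0.27, adjusted p = 0.00052) and with no filter on low counts (0.0140). OSBPL1A (ORP1L), which with RAB7 positions lysosomes, fell to 117, 113 and 113 CPM in CD38 KO, against 186, 193 and 191 CPM in WT (-0.73, adjusted p = 5e-12). The RAB9 effector PLIN3 rose by 0.71 (adjusted p = 9.59e-09), and of the RAB11 effectors, RAB11FIP1 fell by 0.67 and RAB11FIP2 rose by 0.79 on the log2 scale (adjusted p = 7.68e-08 and 2.95e-06).

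**Figure D5:**
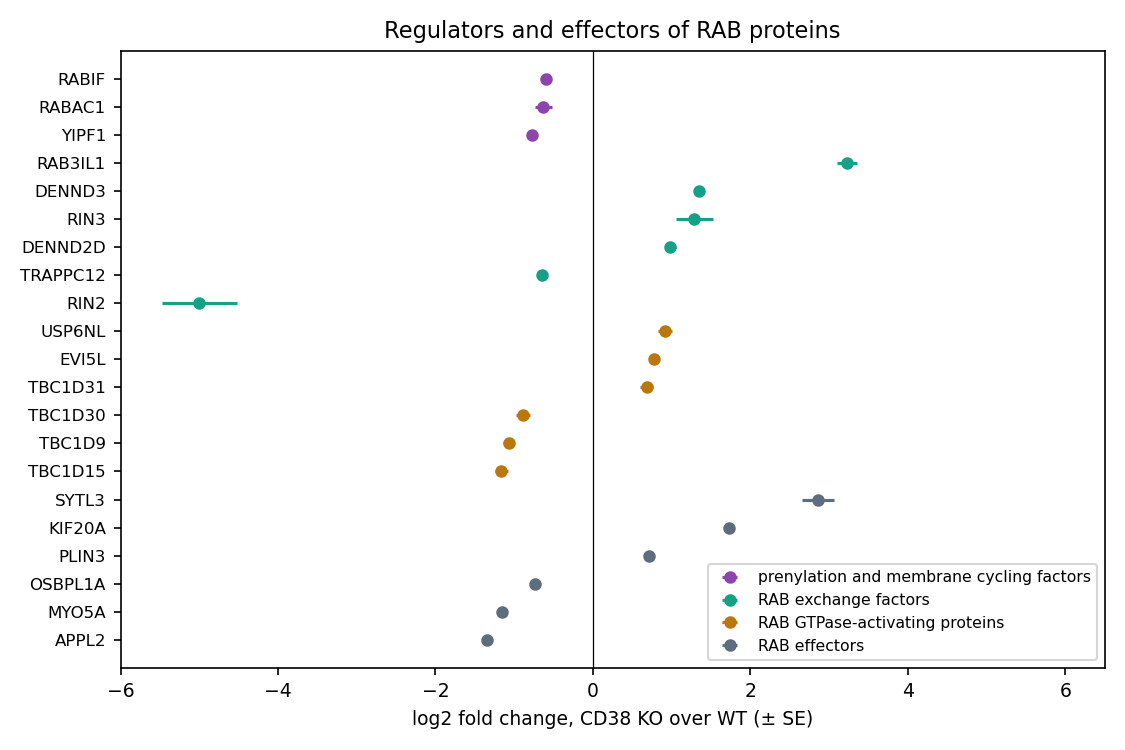
Log2 fold change (CD38 KO over WT, horizontal axis, with standard errors) of the regulators and effectors of RAB proteins with the smallest adjusted p in each of 4 groups, up to 6 a group and at least 0.5 in size. RAB3IL1 and SYTL3 lie farthest to the right (3.23 and 2.86) and RIN2 farthest to the left (-5.00).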

How the data were processed

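The 6 libraries came from cDNA made with a SMARTer kit for low RNA input, as the labels state. The authors deposited raw read counts per gene; STAR 2.7.9a, DESeq2 and Partek are named, with no role, in the submitters' processing notes. Genome build, annotation, counter and strandedness: not given in the sources used here. Each Ensembl identifier was kept once (200 repeats, 60671 genes). Library totals are in the report; no 2 libraries matched within counting noise (chi-square per degree of freedom at least 5.96).

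Differences between CD38 KO and WT were tested with edgeR 4.0.16 (R 4.3.3) by its quasi-likelihood F test (TMM, filterByExpr, robust dispersions, no covariate), with Benjamini-Hochberg adjustment over all 20120 tested genes, and a gene with an adjusted p under 0.05 was called. SEs are the fold change over the root of F. The procedure was tested on simulated counts. Genes given in full average at least 1 CPM and are called with at least a 2-fold change or among the 12 largest rises or falls, with their same-numbered paralogues beside them; RAB1B, RAB7A, RAB18, RAB38 and RAB40C were added after their values were seen; of each regulator list, up to 6 with the smallest adjusted p and a log2 fold change of at least 0.5 are named, and regulators or effectors of a named RAB may be added. The members and lists were chosen with earlier results of these data known. Alternatives were RLE and library-size scaling, other filters, DESeq2 1.42.0, limma-voom (3.58.1), the replicate number as a block, protein-coding genes only, a test against a 2-fold change and each library left out.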

Additional observations from a re-analysis of the deposited data

How the results depend on the processing

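Of the 32 RAB calls, 22 were kept in all 14 alternatives that give a value per gene, and 10 were lost in at least 1; 4 members not called were called in at least 1, RAB2A, RAB4A, RAB11A and RAB12, RAB4A at a filter of 1 CPM in 3 libraries (adjusted p = 0.0303). No called RAB gene changed direction in any of them. RAB members called higher numbered 13 to 21 and those called lower 12 to 15 over these alternatives, with the lowest count of rises under library size alone, and leaving out 1 library at a time gave 15 to 20 higher and 12 to 14 lower. DESeq2 and limma-voom each gave 19 higher and 13 lower. A test against a 2-fold change called 6 members, where 8 were called and at least 2-fold. The same numbers did not pair the libraries: deviations of same-numbered CD38 KO and WT libraries correlated at -0.0207 to 0.0337 across genes, and not every library correlated best with its own number. With the replicate block, 19 RAB members were higher and 13 lower, and 8918 of all genes were called; APPL1 was called (adjusted p = 0.0106), and no RAB call changed. Depth limits what can be said of the 13 members under 1 CPM in every library, where a few counts set the value.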
